A study of Mus musculus with 6 samples.

Results

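The 10 genes described here mark hepatic stellate cells and liver fibroblasts and lie outside the retinoid and collagen genes. They are Pdgfrb, Pdgfra, Des, Acta2, Reln, Ecm1, Dcn, Lum, Dpt and Hhip, taken by symbol from the 54446 genes of the deposited table. Poly-A RNA of mouse liver cells was sequenced in 6 libraries, 2 each from weeks 0, 2 and 7 of MET/CAT and SB transposase, as the title of the series calls the treatment. The labels do not expand CAT or SB and name no promoter, dose or route. They give no age and do not say whether the libraries of a week came from separate animals, so p-values measure only the spread between these samples, which may be technical. The label of week 0 replicate 1 names a mixed FVB/N and C57BL/6 line, and in the other labels the number after C57BL/ differs, so that their background is unsure. No untreated mice of weeks 2 or 7 are among the libraries, so treatment and time cannot be told apart.

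Stellate cells lie between the hepatocytes and the sinusoidal endothelium, where they store retinoids and wrap the sinusoids. In the quiescent state they carry the PDGF receptor beta and the muscle intermediate filament desmin, and in the mouse they secrete reelin. On injury they can become myofibroblasts, which make alpha smooth muscle actin and matrix. Fibroblasts of the portal tracts are a second matrix-making population of the liver. Decorin and lumican, small leucine-rich proteoglycans, and dermatopontin bind collagen fibrils and are made by fibroblasts in many tissues.

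Library totals lay between 49353453 and 58434358 deposited counts, of which about 4 appear to stand for 1 read pair, so that the least abundant members rest on few read pairs. Levels are CPM, counts relative to library size with TMM scaling between libraries, and calls are an adjusted p under 0.05 by edgeR's quasi-likelihood test with Benjamini-Hochberg adjustment over 15368 tested genes. The week 2 libraries were of female type, with 13236 and 12804 counts of Xist and 0 of Ddx3y, whereas weeks 0 and 7 were of male type, with at most 15 counts of Xist and 1897 or more of Ddx3y. Every comparison with week 2 therefore joins time and sex, which cannot be told apart there, and week 7 against week 0 is the comparison of like sex. The 5 hepatocyte markers matched (Alb, Apoa1, Ttr, Hnf4a and Apob) summed to 90720 and 90100 CPM in the week 0 libraries, 115900 and 109700 CPM in those of week 2 and 78550 and 78500 CPM in those of week 7, most of it from Alb.

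Of the 10 markers, 9 passed the filter on low counts, and at week 7 against week 0 Reln rose while Pdgfrb and Dcn fell. The other 6 were not called. This is 3 of 9 beside 13.8% of all tested genes called in either direction, with 1 member higher beside 7.58% of all tested genes and 2 lower beside 6.23%. The median log2 fold change of the 9 was -0.33, beside 0 over all tested genes. At week 2 against week 0, in the female-type libraries, Reln, Pdgfrb, Dcn and Lum were called higher and 0 members lower, or 4 of 9 beside 18.6% of all tested genes, 9.81% being higher and 8.81% lower (median 0.58, beside 0.01). With total counts only as the scaling, 68.7% of the calls over all genes in that comparison were higher, beside 52.7% with TMM, and the members called were 5 higher and 0 lower. Between weeks 7 and 2, Pdgfrb, Lum, Dcn, Pdgfra and Des were called lower at week 7 and 0 members higher, or 5 of 9 beside 19.8% of all tested genes, 10.1% being higher and 9.73% lower (median -1.07, beside 0). The comparisons share libraries, so their counts are not independent of each other. In bulk RNA, fewer cells of a type and less RNA per cell cannot be told apart.

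**Figure D1:**
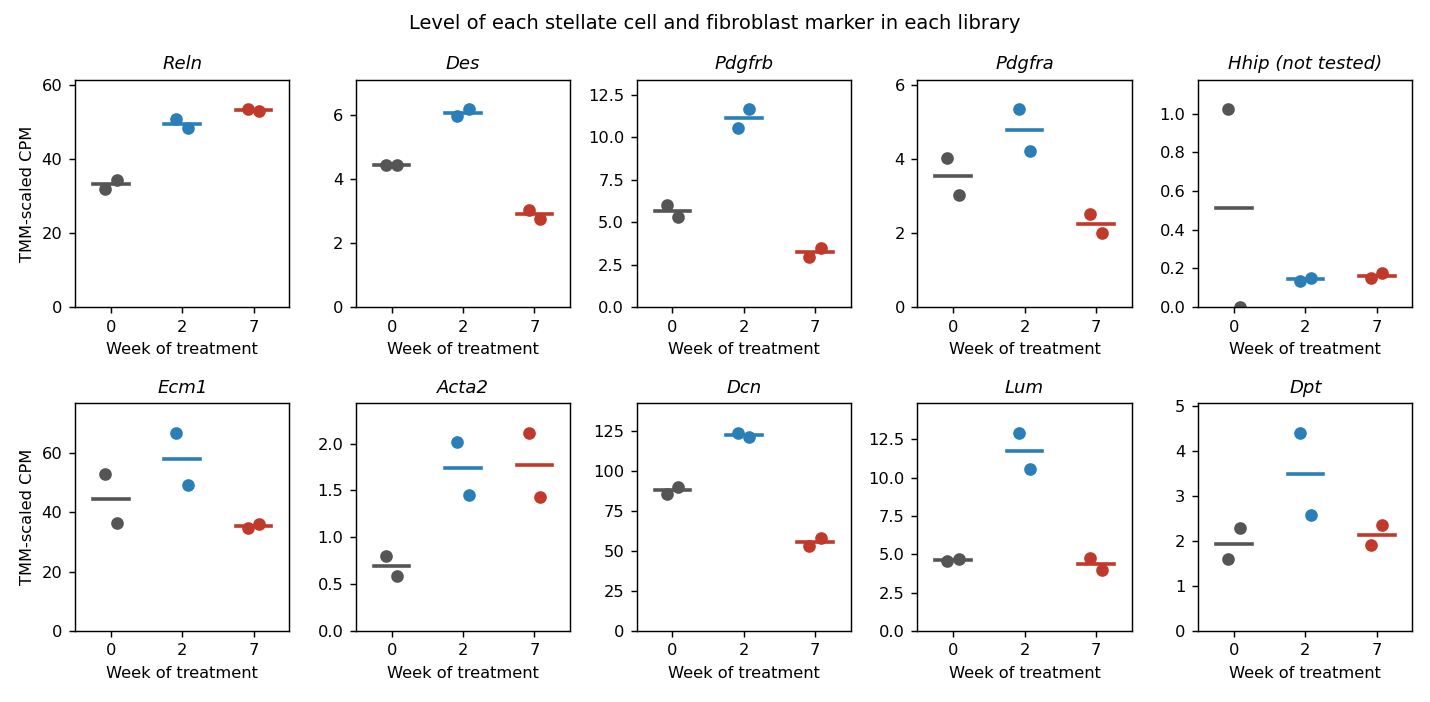
TMM-scaled CPM of each member (vertical axis, starting at 0) in each library against the week of treatment, with points for libraries and a line for the mean of 2. Reln had 53.4 and 53.0 CPM at week 7, above both week 0 libraries, whereas Dcn and Pdgfrb were lowest at week 7 and highest at week 2.

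Reln (ENSMUSG00000042453) encodes reelin, a large secreted glycoprotein best known from neuronal migration. Its RNA had 32.0 and 34.3 CPM at week 0, 50.8 and 48.3 CPM at week 2, and 53.4 and 53.0 CPM at week 7. Both week 0 libraries lay below the other 4, and the values of weeks 2 and 7 did not overlap but lay close together. Reln rose 1.6-fold at week 7 against week 0 (log2 fold change 0.68, standard error 0.08, adjusted p = 0.000644) and 1.5-fold at week 2 against week 0 (0.58, standard error 0.08, adjusted p = 0.000904). Week 7 against week 2 was not called (0.10, 95% interval -0.07 to 0.28). Pdgfrb, Dcn and Lum were higher than week 0 at week 2 but not at week 7, so that of the 9 tested members Reln alone was called higher at both later weeks. Among its receptors and adaptor, Vldlr, Lrp8 and Dab1, the very-low-density-lipoprotein receptor gene Vldlr averaged 8.88 ± 1.43 CPM at week 7, against 4.44 ± 1.26 CPM at week 0 (SD, n = 2 each; edgeR adjusted p = 0.0177). Leaving out week 0 replicate 2 or week 7 replicate 1 ended the call (adjusted p = 0.0794 and 0.105), at log2 fold changes of 0.737 and 0.826. Vldlr was higher at week 2, at 20.3 ± 2.51 CPM (adjusted p = 0.000185 against week 0). Lrp8 did not pass the filter, and Dab1 was not called at week 7 against week 0 (log2 fold change -1.19, 95% interval -2.10 to -0.29) but was lower at week 2 than at week 0 (-1.69, adjusted p = 0.0201).

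The windows around the RefSeq starts of Reln, Des and Pdgfra, 250 bases before to 50 after, are given because Reln rose at week 7 against week 0 while Des and Pdgfra, stellate genes too, had fold changes below 0 that were not called. RefSeq windows of GRCm38.p6 were matched for 7 of the 10 members, not for Pdgfrb, Dcn and Lum. Capitals mark the GC box GGGCGG on either strand.
Reln, GRCm38.p6 chr5:22344656-22344955, minus strand: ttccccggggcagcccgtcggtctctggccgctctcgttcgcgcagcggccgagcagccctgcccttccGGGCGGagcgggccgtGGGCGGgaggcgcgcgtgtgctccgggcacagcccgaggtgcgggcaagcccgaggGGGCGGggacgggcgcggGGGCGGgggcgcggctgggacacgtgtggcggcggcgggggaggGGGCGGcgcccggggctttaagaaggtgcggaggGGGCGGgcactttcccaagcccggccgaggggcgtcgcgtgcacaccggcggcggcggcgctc
Des, GRCm38.p6 chr1:75360042-75360341, plus strand: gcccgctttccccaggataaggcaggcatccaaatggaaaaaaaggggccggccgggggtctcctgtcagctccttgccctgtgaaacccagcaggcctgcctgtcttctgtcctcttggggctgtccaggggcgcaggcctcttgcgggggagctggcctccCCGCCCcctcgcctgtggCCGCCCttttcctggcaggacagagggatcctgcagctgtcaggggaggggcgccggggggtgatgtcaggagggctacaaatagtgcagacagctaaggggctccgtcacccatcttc
Pdgfra, GRCm38.p6 chr5:75152001-75152300, plus strand: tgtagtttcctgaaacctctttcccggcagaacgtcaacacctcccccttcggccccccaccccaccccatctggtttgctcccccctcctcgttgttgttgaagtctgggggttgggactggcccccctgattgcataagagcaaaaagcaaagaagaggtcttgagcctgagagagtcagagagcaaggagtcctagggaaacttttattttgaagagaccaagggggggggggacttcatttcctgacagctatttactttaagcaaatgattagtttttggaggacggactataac

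The Reln window held 6 GC boxes, that of Des 2 and that of Pdgfra 0, and 35.7% of all 32851 RefSeq windows of the same length held at least 1. The Reln window was 80.7% G or C, against 65.3% for Des and 51.0% for Pdgfra. The TATA box TATAAA was in none of these 3 and in 13.6% of all windows. Among the matched windows not printed, those of Acta2 and Dpt held 0 GC boxes, that of Ecm1 1 and that of Hhip 2. Those of Ecm1 and Dpt each held 1 TATAAA, and those of Acta2 and Hhip 0. The CArG box, CC, then 6 A or T, then GG, was in none of the 7 matched windows and in 1.63% of all windows. Acta2, whose window was 54.7% G or C, had a log2 fold change of 1.35 at week 7 against week 0, not called. GC box, TATA box and CArG box were searched on both strands, and no matches overlapped in the printed windows. These matches describe letters in the window and show nothing about binding.

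Pdgfrb (ENSMUSG00000024620) encodes the beta receptor of platelet-derived growth factor, the receptor through which PDGF-B drives stellate cell growth. It had 6.01 and 5.31 CPM at week 0, 10.6 and 11.6 CPM at week 2, and 2.93 and 3.50 CPM at week 7, so that no 2 weeks overlapped. At week 7 it was 0.568 times its week 0 level (log2 fold change -0.82, standard error 0.19, adjusted p = 0.0218). With only the 4 libraries compared the adjusted p was 0.0584, and leaving out replicate 1 of week 0 or of week 7 gave 0.0976 and 0.115, while the log2 fold change of Pdgfrb stayed between -0.95 and -0.691 under all alternatives. Against week 0 it rose 1.96-fold at week 2 (adjusted p = 0.00631, or 0.0528 without week 2 replicate 2), and at week 7 it was 0.29 times its week 2 level (log2 fold change -1.79, standard error 0.19, adjusted p = 0.000222).

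Pdgfra (ENSMUSG00000029231) encodes the alpha receptor, which marks liver fibroblasts and, in the mouse, stellate cells as well. Its levels were 4.05 and 3.03 CPM at week 0, 5.35 and 4.24 CPM at week 2, and 2.52 and 2.00 CPM at week 7. Each week's pair lay apart from the others, with the lower week 0 library above both of week 7. Week 7 against week 0 was not called (log2 fold change -0.65, 95% interval -1.26 to -0.04, adjusted p = 0.157), and neither was week 2 against week 0 (0.44, -0.16 to 1.03). Week 7 was lower than week 2 (log2 fold change -1.09, adjusted p = 0.0208), a call that ended when week 2 replicate 1 or week 7 replicate 2 was left out (adjusted p = 0.134 and 0.119). Of the 4 PDGF ligand genes none was called at week 7 against week 0, where Pdgfa averaged 5.99 ± 0.876 CPM at week 7, against 5.93 ± 1.02 CPM at week 0, and Pdgfc 3.86 ± 0.0409 and 3.34 ± 0.654 CPM (SD, n = 2 each). Pdgfc was higher at week 2 than at week 0 (log2 fold change 0.95, adjusted p = 0.0155). It was lower at week 7 than at week 2 (-0.74, adjusted p = 0.0406). These calls held under 10 and 8 of 13 alternatives. Pdgfb averaged 1.25, 2.99 and 1.28 CPM at weeks 0, 2 and 7 and was not called in any comparison.

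Des (ENSMUSG00000026208) encodes desmin. It had 4.43 and 4.44 CPM at week 0, 5.97 and 6.18 CPM at week 2, and 3.04 and 2.76 CPM at week 7, with no overlap between weeks. The difference between weeks 7 and 0 missed the call (log2 fold change -0.61, 95% interval -1.07 to -0.16, adjusted p = 0.08), whereas week 7 was lower than week 2 (-1.07, standard error 0.2, adjusted p = 0.00581). Acta2 (ENSMUSG00000035783), the alpha smooth muscle actin gene that myofibroblasts and vascular smooth muscle use, was scarce throughout. The week 0 libraries held 40 and 28 counts of it, or 0.801 and 0.581 CPM. Those of week 2 held 121 and 86 counts, or 2.02 and 1.45 CPM, and those of week 7 held 114 and 73 counts, or 2.11 and 1.43 CPM. Both later weeks lay above week 0 in every library and overlapped each other. Neither difference was called (week 7 against week 0, log2 fold change 1.35, 95% interval 0.38 to 2.33, adjusted p = 0.0729; week 2 against week 0, 1.32, 0.35 to 2.30, adjusted p = 0.0638). With total counts only, week 2 against week 0 was called (adjusted p = 0.0494). Among other actin genes, Acta1 and Actc1 had 0 counts in every library and Actg2 at most 9. The cytoplasmic actin genes Actb and Actg1 were not called by edgeR with all libraries. Actg1 was called higher at week 7 against week 0 with DESeq2 (adjusted p = 0.0345) and without week 0 replicate 1 (0.00484), and at week 2 against week 0 without that library (0.00654), and Actb was called lower at week 2 against week 0 without week 0 replicate 2 (0.0258). Actin genes are near-identical, and how their shared reads were assigned is unknown.

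Dcn (ENSMUSG00000019929), which encodes decorin, had 85.6 and 90.3 CPM at week 0, 124 and 122 CPM at week 2, and 53.4 and 58.4 CPM at week 7. The 3 weeks stood well apart beside the small gap between replicates. Dcn fell to 0.636 of its week 0 level at week 7 (log2 fold change -0.65, standard error 0.07, adjusted p = 0.000356) and was 1.39-fold higher at week 2 than at week 0 (0.48, standard error 0.07, adjusted p = 0.00115). Week 7 was 0.456 times week 2 (adjusted p = 5.91e-06). Within a library, with each gene taken per kilobase of exon, Dcn stood to Reln as 10.9 and 10.7 to 1 in the week 0 pair, 9.92 and 10.2 in that of week 2, and 4.07 and 4.48 in that of week 7. This ratio does not depend on the scaling between libraries, and its week 7 values lay below all others.

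Lum (ENSMUSG00000036446), the lumican gene next to Dcn on the chromosome, encodes another collagen-binding proteoglycan. It had 4.55 and 4.69 CPM at week 0, 12.9 and 10.6 CPM at week 2, and 4.78 and 3.97 CPM at week 7. Weeks 7 and 0 overlapped and were not called apart (log2 fold change -0.08, 95% interval -0.51 to 0.36). Per kilobase, Dcn stood to Lum within a library as 7.90 and 8.08 to 1 in the week 0 pair, 4.03 and 4.81 in that of week 2, and 4.69 and 6.17 in that of week 7, with both week 0 libraries highest. Lum was higher at week 2 than at week 0 by 2.54-fold (1.35, standard error 0.19, adjusted p = 0.00124) and lower at week 7 than at week 2 (-1.42, adjusted p = 0.000915). The next genes in that chromosomal group, Kera and Epyc, proteoglycans of the cornea and cartilage, had 0 counts in every library. Dpt (ENSMUSG00000026574), the dermatopontin gene, had 1.60 and 2.28 CPM at week 0, 4.40 and 2.58 CPM at week 2, and 1.91 and 2.35 CPM at week 7. Week 7 overlapped week 0, and in none of the comparisons was Dpt called (week 7 against week 0, log2 fold change 0.13, 95% interval -0.66 to 0.93).

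Ecm1 (ENSMUSG00000028108) encodes extracellular matrix protein 1, which mouse hepatocytes also make and which limits activation of latent TGF-beta. It had 52.9 and 36.2 CPM at week 0, 66.7 and 49.1 CPM at week 2, and 34.7 and 36.0 CPM at week 7. The replicates of weeks 0 and 2 lay far apart, these weeks overlapped, and no comparison was called (week 7 against week 0, log2 fold change -0.33, 95% interval -0.95 to 0.28). Week 7 against week 2 had an adjusted p of 0.113, but 0.00256 with DESeq2, 0.0246 with only the 4 libraries compared, and 0.0229 and 0.0247 without week 0 replicate 1 or 2. Hhip (ENSMUSG00000064325) encodes a decoy that binds Hedgehog ligands at the cell surface. The week 0 libraries held 51 and 0 counts of it, those of week 2 held 8 and 9, and those of week 7 also 8 and 9, so that the highest and the lowest value were both of week 0. It did not pass the filter, and apart from the first week 0 library all values lay under the 12 counts (3 read pairs) used as a floor, so no fold is given.

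**Figure D2:**
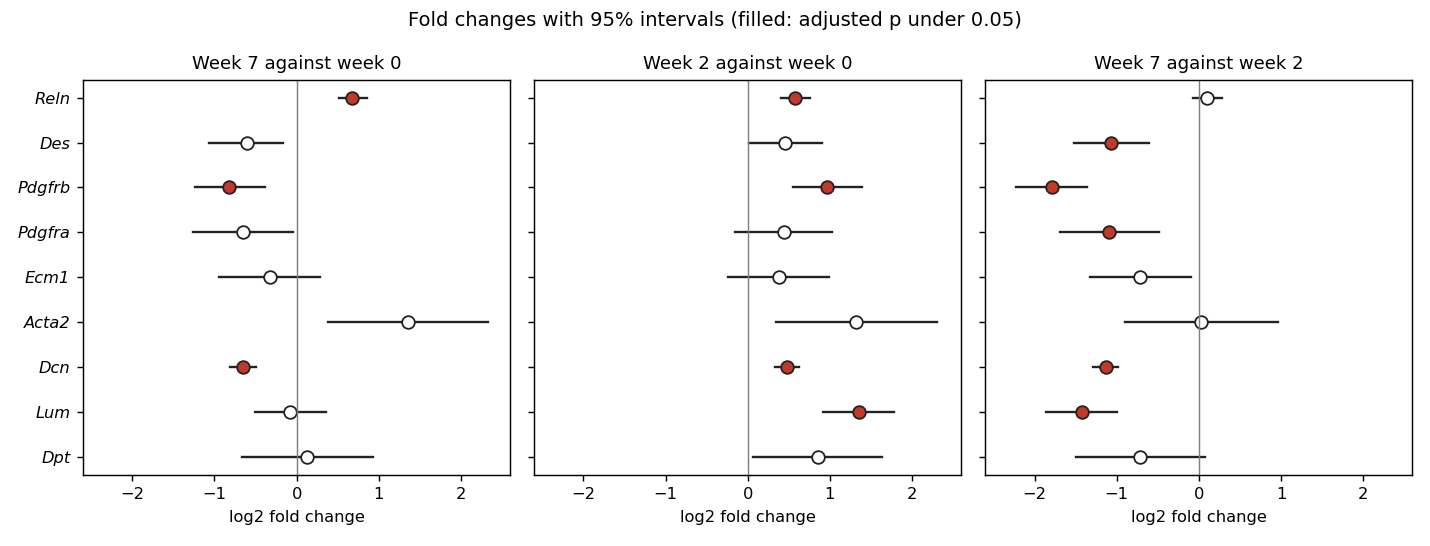
Log2 fold changes (horizontal axis) of the 9 tested members in the 3 comparisons, with 95% intervals as lines and filled points for adjusted p under 0.05. At week 7 against week 0 the points of Reln (0.68), Pdgfrb (-0.82) and Dcn (-0.65) are filled, and at week 7 against week 2 5 points are filled, all below 0.

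Levels of different genes can be set beside each other only per length. Lengths here join all annotated exons of a gene, so they can exceed that of its main transcript. The order of genes and the size of ratios between genes depend on this choice, while the change of a ratio between weeks does not. Per kilobase of annotated exon, Ecm1 and Dcn led at each week, with 17.7 ± 4.66 and 15.1 ± 0.565 CPM per kilobase at week 0 (SD, n = 2), where their libraries overlapped, and 14.0 ± 0.358 and 9.58 ± 0.606 at week 7, where they did not. At week 0 Lum followed at 1.89 ± 0.0399, then Reln at 1.40 ± 0.066, Des at 1.18 ± 0.00177, Dpt at 1.13 ± 0.278 and Pdgfrb at 1.03 ± 0.0907. Neighbours from Des to Pdgfrb overlapped in that order, as did Pdgfra (0.353 ± 0.0719) and Acta2 (0.315 ± 0.0711). Hhip was the lowest at every week. At week 7 Reln stood above Lum, at 2.24 ± 0.0125 and 1.79 ± 0.234, and Acta2 (0.806 ± 0.22) overlapped Des (0.772 ± 0.0528) and stood above Pdgfrb (0.587 ± 0.0741), the reverse of their order at week 0. Per kilobase, Pdgfrb stood to Pdgfra as 2.72 and 3.21 to 1 in the week 0 libraries, 3.61 and 5.02 in those of week 2, and 2.13 and 3.21 in those of week 7, so weeks 7 and 0 overlapped in it.

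The other stellate genes, 16 in number and neither retinoid nor collagen genes, had 1 called higher and 5 called lower at week 7 against week 0, beside 13.8% of all tested genes called, with a median log2 fold change of -0.53 beside 0 over all tested genes. Rgs5, a regulator of G-protein signalling in pericytes, averaged 30.8 ± 4.72 CPM at week 7, against 53.2 ± 1.69 CPM at week 0 (SD, n = 2 each; log2 fold change -0.79, adjusted p = 0.00167). Colec11, a collectin gene, had 16.6 ± 2.51 and 32.3 ± 4.45 CPM at these weeks (adjusted p = 0.00201). Steap4, a metalloreductase gene, rose to 97.1 ± 1.33 CPM at week 7, against 65.2 ± 1.05 CPM at week 0 (adjusted p = 0.000545), and its 94.9 ± 5.07 CPM at week 2 were above week 0 too (adjusted p = 0.000415), as for Reln. At week 2 against week 0, 5 of the 16 were higher and 0 lower, beside 18.6% of all tested genes called, and at week 7 against week 2, 0 were higher and 11 lower, beside 19.8%. The members summed to 159 and 163.6 CPM at week 7 and to 193 and 181.1 CPM at week 0, and these 16 genes to 220.1 and 217.3 CPM at week 7 and to 256 and 245 CPM at week 0. Most of the member sum came from Dcn, Ecm1 and Reln. Their means were 88, 44.6 and 33.1 CPM at week 0 and 55.9, 35.4 and 53.2 CPM at week 7.

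Of 13 small leucine-rich proteoglycans listed besides Dcn and Lum, 8 were tested. At week 7 against week 0, 13.8% of all tested genes were called, and of these 8, 0 were called higher and 2 lower. These were Bgn, the biglycan gene, at 47.7 ± 2.68 CPM at week 7 and 74.1 ± 0.846 CPM at week 0 (SD, n = 2 each; adjusted p = 3e-04), and Prelp, at 17.0 ± 1.6 and 27.6 ± 0.0361 CPM (adjusted p = 0.00161). Both were higher at week 2 than at week 0, at 138 ± 0.5 and 50.1 ± 0.745 CPM (adjusted p = 1.61e-05 and 0.00028). Omd, the osteomodulin gene, was lower in the female-type libraries, with 8 and 0 counts there and 134 and 168 in those of week 0 (adjusted p = 0.00286).

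Of 11 tested contractile genes, which smooth muscle and myofibroblasts share, from 14 listed, 1 was called higher at week 7 against week 0 and 0 lower, beside 13.8% of all tested genes called. That gene was Mylk, the myosin light chain kinase gene, whose call (adjusted p = 0.0197) was lost when any 1 of the 4 libraries of weeks 7 and 0 was left out (adjusted p for Mylk 0.0621 to 0.0861). Cnn1, the calponin gene, had 16 and 9 counts at week 7 and 0 at weeks 0 and 2, and Myocd had 0 throughout. Of 9 tested portal fibroblast genes, from 11 listed, 1 was higher at week 7 against week 0 and 5 at week 2 against week 0, with 0 lower in either. Over all tested genes, 7.58% were called higher at week 7 and 9.81% at week 2, each against week 0. Fbln1, the fibulin 1 gene, was at 5 counts in each week 0 library, at 344 and 284 in those of week 2, and at 448 and 373 in those of week 7 (adjusted p = 4.74e-06 for week 7 and 2.96e-06 for week 2, each against week 0). Thy1, a surface glycoprotein gene of portal fibroblasts and of T cells, rose to 4.06 ± 0.44 CPM at week 2, against 1.22 ± 0.403 CPM at week 0 (adjusted p = 0.00682), and had 2.39 ± 0.554 CPM at week 7. The 5 tested mesothelial genes were not called in any comparison, and the sum of the 6 listed lay between 2.37 and 7.23 CPM in every library.

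**Figure D3:**
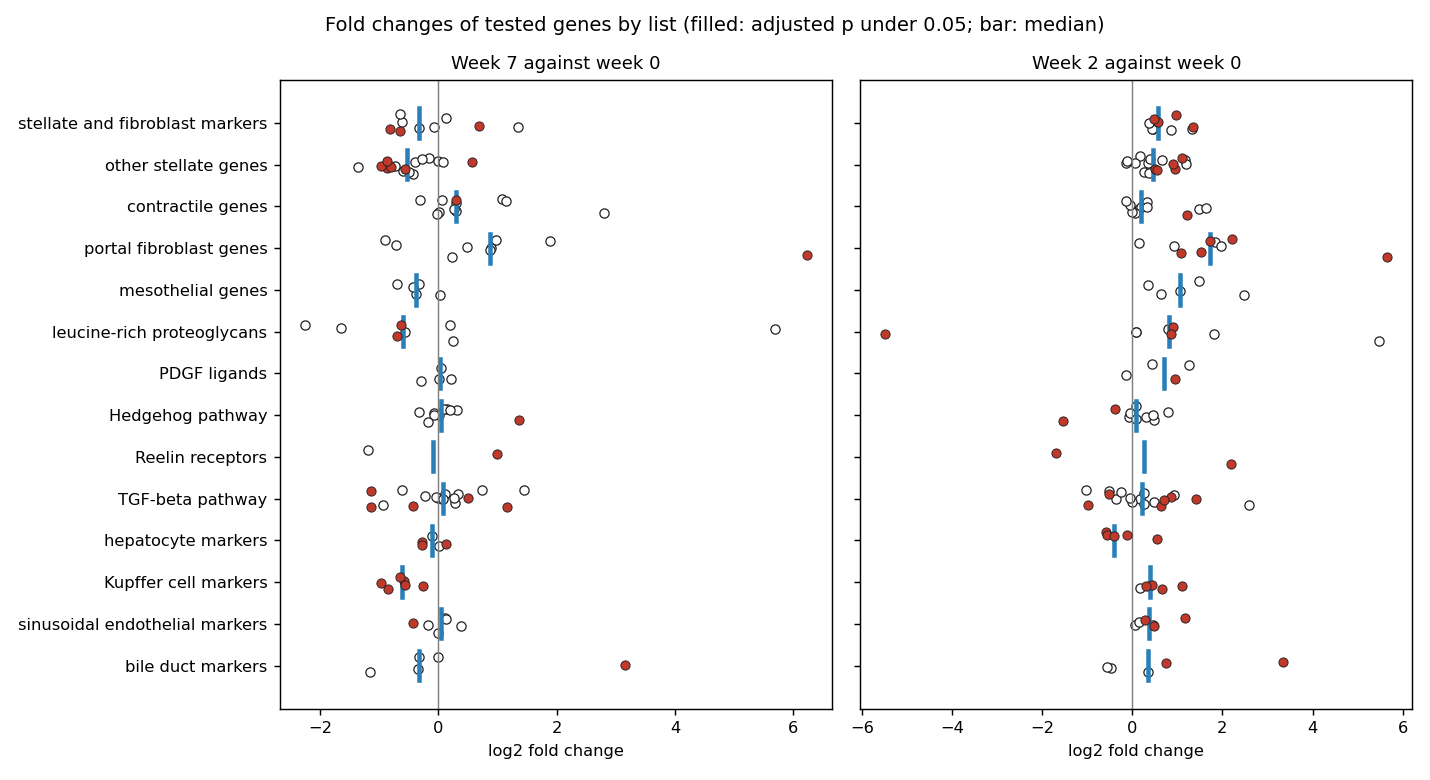
Log2 fold changes (horizontal axis) of every tested gene by list, for week 7 against week 0 and week 2 against week 0, with filled points for adjusted p under 0.05 and a bar at the median. At week 7 the medians of the stellate and fibroblast markers (-0.33) and of the other stellate genes (-0.53) are below 0 and that of portal fibroblast genes (0.87) above it, while at week 2 all 3 are above 0 (0.58, 0.45 and 1.73).

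Hedgehog ligands, which Hhip binds, act through Ptch1 and Smo on the Gli factors. Of 10 tested pathway genes, from 16 listed, 1 was called higher at week 7 against week 0 and 0 lower. Over all tested genes the share called there was 13.8%. Ihh, a ligand gene, rose to 9.17 ± 1.21 CPM at week 7, against 3.58 ± 0.534 CPM at week 0 (SD, n = 2 each; log2 fold change 1.36, adjusted p = 0.00328). Ptch1 was not called there (log2 fold change 0.01), at 37.5 ± 1.13 CPM at week 7 and 37.3 ± 0.307 CPM at week 0. At week 2 it had 28.7 ± 2.33 CPM, lower than at week 0 (adjusted p = 0.0191). The ligand gene Shh was lower at week 2 than at week 0 too (adjusted p = 0.0332). These 2 calls held under 9 and 7 of 13 alternatives. Gli1, a usual target of the pathway, had at most 9 counts and Gli2 had 0 in every library. Of 18 TGF-beta pathway genes, 2 were higher and 3 lower at week 7 against week 0, beside 13.8% of all tested genes called. The receptor gene Tgfbr2 rose to 33.6 ± 1.86 CPM at week 7, against 23.8 ± 1.22 CPM at week 0 (adjusted p = 0.00769). Smad7, which encodes an inhibitor of the pathway, fell to 7.89 ± 0.477 CPM at week 7, against 17.3 ± 1.95 CPM at week 0 (adjusted p = 0.00362). Lrrc32, which anchors latent TGF-beta at the surface, fell to 4.09 ± 0.085 CPM, against 8.98 ± 0.578 CPM at week 0 (adjusted p = 0.00509).

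Markers of other liver cell types differed between the weeks to unlike degrees. Of all tested genes, 13.8% were called at week 7 against week 0 and 18.6% at week 2 against week 0. The 6 Kupffer cell markers were all called lower at week 7 against week 0, and their sums were 338.6 and 334.2 CPM in the week 0 libraries, 454.4 and 449.6 CPM in those of week 2, and 241.7 and 239.7 CPM in those of week 7. Of 6 sinusoidal endothelial markers 0 were higher and 1 lower at week 7 against week 0, with sums of 236.8 and 244.6 CPM in the week 0 libraries, 307 and 286.2 CPM in those of week 2, and 219.5 and 228.2 CPM in those of week 7. Of 5 bile duct markers 1 was higher and 0 lower at week 7 against week 0, with sums of 19.29 and 19.66 CPM in the week 0 libraries, 30.25 and 36.82 CPM in those of week 2, and 18.97 and 19.52 CPM in those of week 7. Krt19 was the gene called higher, at 4.6 ± 0.109 CPM at week 7, against 0.513 ± 0.329 CPM at week 0 (SD, n = 2 each; edgeR adjusted p = 0.0011). Most of the bile duct sum came from Spp1, which had 11.9 ± 0.174 and 15.2 ± 0.758 CPM at these weeks and was not called. Of the 5 hepatocyte markers 1 was higher and 2 lower at week 7 against week 0, and 1 was higher and 4 lower at week 2 against week 0, with a median log2 fold change of -0.41. The one that was higher at week 2 was Alb, the albumin gene, which makes up most of the hepatocyte sum, while Apoa1, Ttr, Apob and Hnf4a were lower at log2 fold changes of -0.58, -0.55, -0.41 and -0.11. No marker of these 4 lists was at 0 in all libraries. At week 2 the sums of the members, of the other stellate genes and of the Kupffer, endothelial and bile duct markers were all above both week 0 libraries. The part of cell type composition in the members' differences was not tested.

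**Figure D4:**
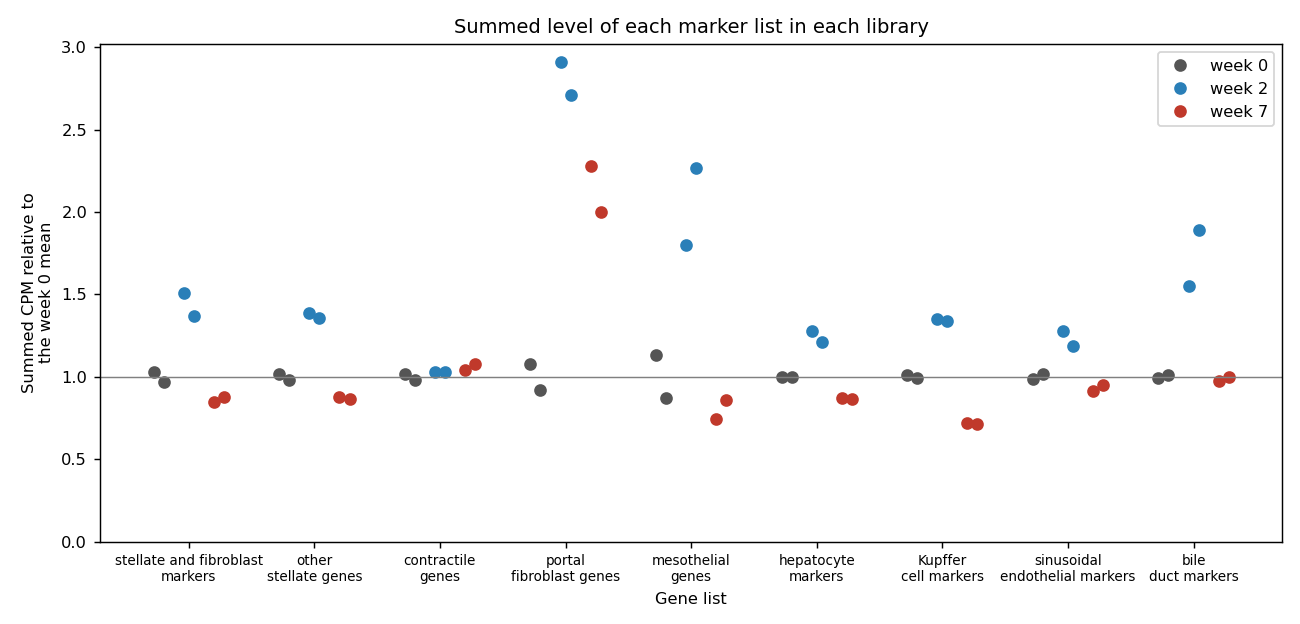
Summed CPM of each gene list in each library, divided by the list's week 0 mean (vertical axis, starting at 0). The stellate and fibroblast markers stood at 1.51 and 1.37 at week 2 and at 0.85 and 0.875 at week 7, Kupffer cell markers at 0.718 and 0.713 at week 7, and portal fibroblast genes at 2.28 and 2.00 at week 7. Most of the week 7 rise in the portal fibroblast sum came from Fbln1, at 0.102 CPM at week 0 and 7.8 CPM at week 7. Of the 9 tested portal fibroblast genes, 7 had fold changes above 0 at week 7 against week 0 and 2 below. Dcn, Ecm1 and Reln made up most of the stellate and fibroblast sum.

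The genes whose pattern was most like a called member were found by the root mean square difference of centred log2 CPM over the 6 libraries. For Reln these were Myo1e, Cdc42ep1 and Crlf3, at differences of 0.0383, 0.0459 and 0.0473. Myo1e, a class I myosin gene, had 29.6 and 29.1 CPM at week 0, 45.1 and 41.9 CPM at week 2, and 46.9 and 45.6 CPM at week 7. For Dcn they were Fcna, Rgs2 and Gm7993, at 0.0621, 0.0732 and 0.0816. Fcna, the ficolin A gene, had 45.9 and 46.7 CPM at week 0, 65.0 and 70.3 CPM at week 2, and 26.9 and 31.6 CPM at week 7. For Pdgfrb they were Casp12, Adamts13 and Rsad2, at 0.0692, 0.0698 and 0.106. Adamts13, whose protease cleaves von Willebrand factor, had 8.41 and 7.75 CPM at week 0, 14.6 and 16.2 CPM at week 2, and 4.65 and 5.52 CPM at week 7.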

How the data were processed

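Per the labels' protocols, TruSeq V2 libraries of poly-A RNA were sequenced as paired ends. The authors deposited 1 table of estimated counts, which are neither depth-scaled nor length-scaled, with Ensembl identifiers. The submitters' processing notes name Bowtie 0.12.2 and mm8 without giving either a role, and the counting program and annotation are not recorded in the labels read here. The values are whole numbers, so they entered the fit unrounded. Symbols and exon lengths came from GENCODE M21, which matched 54409 of 54446 genes and may not be the annotation used for counting. The build behind the table is unsure, so the coordinates given are those of the RefSeq windows alone. Reads carry no molecular identifiers, and floors cover counting error only. Genes whose exons overlap a member's had at most 1 count in a library.

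The fit used edgeR 4.0.16 in R 4.3.3 over all 6 libraries, with filterByExpr, TMM and 1 term for each week in glmQLFit and glmQLFTest, where 3 degrees of freedom were left and the common biological coefficient of variation was 0.209. Standard errors were derived from the F statistic. DESeq2 1.42.0 was an alternative, beside median-of-ratios and total-count scaling, no filter, only the 4 libraries compared, a replicate block, counts divided by 4 and each library left out. The scripts were tested on simulated data. Figures used Python 3.11.15 with pandas 2.3.3 and matplotlib 3.10.9.

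The members, lists and tests were chosen with earlier results of these data known. Named are all members and, of each list and comparison, up to 3 called genes in each direction by adjusted p (the 2 of highest level where none was called), plus the 3 genes nearest in pattern to a called member. Genes named for having 0 or few counts (Cnn1, Myocd, Lrp8, Gli1, Gli2, Kera, Epyc, Acta1, Actc1 and Actg2) were chosen after their values were seen.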

Additional observations from a re-analysis of the deposited data

How the results depend on the processing

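The 12 calls of members over the 3 comparisons held under all 13 alternatives in 9 cases. The 3 that did not were those of Pdgfrb at week 7 and at week 2, each against week 0, and of Pdgfra at week 7 against week 2, and they kept their direction. The number of members called lay between 2 and 3 at week 7 against week 0, 3 and 5 at week 2 against week 0, and 4 and 6 at week 7 against week 2. Of 15 member differences that were not called, 10 stayed so with the same direction, and 2 (Acta2 at week 2 against week 0 and Ecm1 at week 7 against week 2) were called under some settings. The other 3 turned in direction. Acta2 at week 7 against week 2 had log2 fold changes of -0.0226 with total counts only, -0.000507 with counts divided by 4, and -0.281 to 0.288 with 1 library left out. At week 7 against week 0, leaving out 1 library gave -0.216 to 0.0511 for Lum, -0.101 to 0.409 for Dpt, -0.152 to 0.203 for Pdgfa and -0.362 to 0.296 for Actb, which had -0.538 to 0.12 at week 2 against week 0. The cause of these turns was not tested. Over all genes, leaving out 1 library gave 1298 to 1856 calls at week 7 against week 0 (2123 with all libraries), 1801 to 2752 at week 2 against week 0 (2862) and 1842 to 2961 at week 7 against week 2 (3040). Of 89 called differences of listed genes that are no members, taken by the naming rule, 59 held under all alternatives.

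The deviations of replicates correlated at 0.0653 between weeks 2 and 0, -0.277 between weeks 7 and 0 and -0.0547 between weeks 7 and 2. With 2 libraries per week these values cannot show whether replicate numbers pair the libraries. The replicate block gave 3, 4 and 6 called members and 1702, 2436 and 2620 calls over all genes at week 7 against week 0, week 2 against week 0 and week 7 against week 2. It lost no call of a member and added that of Ecm1 at week 7 against week 2 (adjusted p = 0.0272). Depth limits Acta2, Dpt and Hhip most, with at most 264 deposited counts in a library.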
